A study of Mus musculus with 7 samples.

Results

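The 10 genes described here move fatty acids into cells and mitochondria and burn them there: Lpl, Cd36, Fabp3, Cpt1b, Cpt2, Acadvl, Acadm, Hadha, Ucp3 and Ppargc1a. They were taken by symbol from the 42689 mouse genes to which the deposited transcripts were mapped, and all 10 were among the 16028 genes that passed the filter on low counts. The list was chosen on measured values of these libraries, with a fall of Fabp3 at the injury site already known. Differences of the 10 between groups are therefore given as descriptions, without a test.

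RNA was sequenced from 7 libraries of hindlimb tendon of mice on a C57BL/6 background, taken between the gastrocnemius and the heel bone. The tenotomy group (n = 2) is the left hindlimb of mice that had received a burn over 30% of the body surface (a metal block at 60 °C held on the back for 18 s) together with a cut through the Achilles tendon, 3 weeks earlier. The contralateral group (n = 3) is the uncut right hindlimb of burn and tenotomy mice at the same time, so these animals share the burn, the isoflurane and the buprenorphine given every 12 h for 2 days. The uninjured group (n = 2) is from wild-type mice with neither burn nor tenotomy. The series concerns the kinase TAK1, but these labels name no TAK1 allele. Age and sex are not given in the sources used here, and neither is whether each library is 1 animal or whether contralateral and tenotomy libraries share animals, so the p-values measure only the spread between these samples.

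Long-chain fatty acids reach muscle mainly as lipoprotein triglyceride, which lipoprotein lipase splits at the capillary wall. Uptake through CD36, carriage by a cytosolic binding protein, entry into mitochondria as carnitine esters and stepwise shortening by β-oxidation follow. Oxidative muscle fibres express these genes strongly, largely under PPAR receptors and the coactivator PGC-1α. Tendon relies less on oxidative metabolism than muscle does, and the sampled stretch borders on the gastrocnemius muscle.

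Library totals ranged from 25927171 to 36725106 estimated counts, of which 76.4% to 81.4% lay in the 5 features most abundant over all libraries together. Only 4934057 to 8375626 counts per library lay outside those 5, which is the depth behind the values below. The library labelled uninjured replicate 1 stood apart from its group. On Euclidean distance over log2 CPM (CPM, read counts scaled to a common library total) it lay 59.6 and 61.1 from the tenotomy libraries and 114.0 from uninjured replicate 2. Its cartilage genes lay between: the 5 listed chondrocyte markers, such as Col2a1 and Acan, summed to 70.5 CPM in it, 230 and 234 CPM at the tenotomy site, and at most 4.99 CPM in the other 4 libraries. Comparisons with the uninjured group are therefore also given without this library.

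The RNA also differed in its muscle content. The 12 listed skeletal muscle markers, such as the actin gene Acta1 and the creatine kinase gene Ckm, summed to 19166 to 20175 CPM in the contralateral libraries and to 1550 and 1562 CPM in the tenotomy libraries. They summed to 2009 CPM in the library labelled uninjured replicate 1 and to 13353 CPM in uninjured replicate 2. In bulk tissue, fewer cells of a type and less RNA per cell cannot be told apart. The part of muscle content in the differences between groups below was not tested. The tendon markers Scx and Tnmd were present in all 7 libraries, Tnmd at 5.41 to 11.8 CPM in the contralateral libraries and uninjured replicate 2 and at 25.3 to 28.5 CPM in the other 3.

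The upstream sequences of the 10 genes were examined for the AGGTCA half-site, the core that nuclear receptors such as PPAR, RXR and ERR bind, singly or as repeats. RefSeq windows of 250 bases before the transcription start (build GRCm38.p6) were at hand for 8 of the 10 members, Lpl and Cpt1b being without one. On either strand, AGGTCA lay in the windows of 4 of these 8 members and in 14.0% of all 32851 windows. The 5 matches are shown 5′ to 3′ on the gene's strand, with the half-site or its complement TGACCT in capitals. Of the regulators described below, Ppara, Esrra, Ppard, Pparg and Rxra encode receptors of this class.
Acadm, chr3:153944867-153944893, minus strand: gTGACCTtcgggctccggtgacactgg
Cd36, chr5:17836099-17836144, minus strand: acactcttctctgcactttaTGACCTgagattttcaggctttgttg
Ucp3, chr7:100472822-100472867, plus strand: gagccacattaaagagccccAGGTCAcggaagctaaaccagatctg
Ucp3, chr7:100472927-100472972, plus strand: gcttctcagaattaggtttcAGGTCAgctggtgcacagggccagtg
Acadvl, chr11:70015490-70015535, minus strand: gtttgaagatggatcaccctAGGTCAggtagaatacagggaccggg

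None of the 5 stretches overlapped an annotated exon. The Acadm match was the one preceded by an A on the half-site's strand (AAGGTCA, the extended form that ERR receptors prefer), which 4.08% of all windows held. A direct repeat of 2 half-sites with 1 base between them, the arrangement known for PPAR with RXR, was in no member's window and in 11 windows of all genes. The Cd36 window belongs to the RefSeq start nearest to that of the transcript Cd36-201, 1 of 4 annotated Cd36 transcripts. These matches are letters in a window, and binding was not measured.

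Hadha and Hadhb, which encode the α and β subunits of the mitochondrial trifunctional protein, are read in opposite directions from a shared start region. The outermost Hadha start is that of the transcript Hadha-205. Hadha-201, which holds the largest share of Hadha TPM, starts further in, at chr5:30154976. The whole gap between the outermost starts in GENCODE M21 is 85 bases, chr5:30155163-30155247 on the plus strand, with 69.4% G and C. It is shown with its 2 GGGCGG boxes, the letters known for Sp1, in capitals; 32.7% of all windows held such a box on either strand.
Hadha-Hadhb gap: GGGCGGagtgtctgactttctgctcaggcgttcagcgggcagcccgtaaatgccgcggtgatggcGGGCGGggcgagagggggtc

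All 10 members were lower at the tenotomy site than in the contralateral limb, with a median log2 fold change of -2.47 against -0.001 over all genes. Both tenotomy libraries lay below all 3 contralateral libraries for 10 of 10 members, which held for 31.8% of all genes. By edgeR's quasi-likelihood test with Benjamini-Hochberg adjustment over all genes, 15.4% of genes were called lower and 13.6% higher. The 10 members were all among the genes called lower, a count from which nothing is read since this contrast chose them. Mitochondrial genes of general function went the same way: 7 of 8 listed ones, among them the citrate synthase gene Cs, were called lower, with a list median of -2.19. The list median of the 12 skeletal muscle markers was -3.19, and all 12 were called lower.

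**Figure D1:**
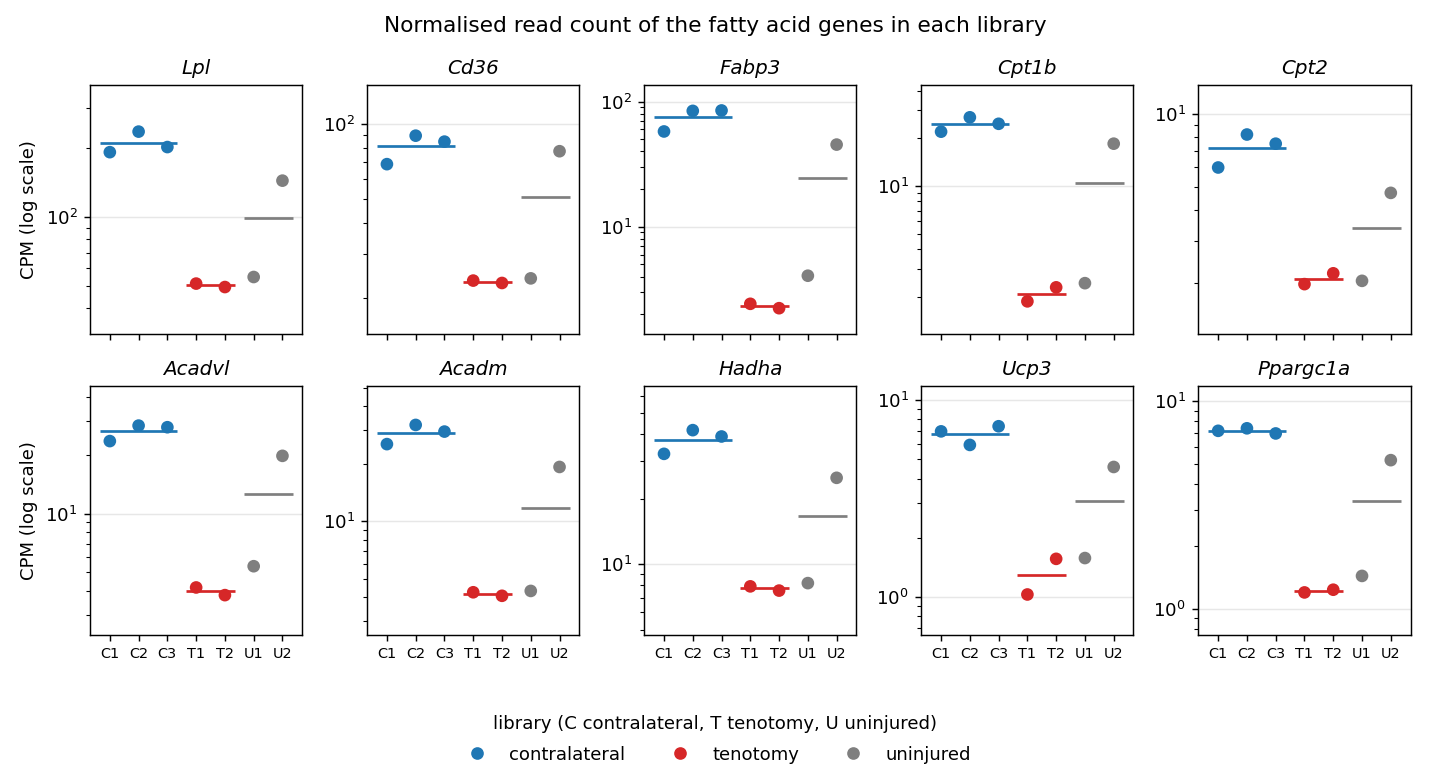
Normalised read count (CPM, log scale) of the 10 genes in each of the 7 libraries, with horizontal lines at the group means. C, T and U are contralateral, tenotomy and uninjured. In every panel T1, T2 and U1 sit below C1, C2, C3 and U2.

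Among the uptake genes, Lpl (chr8:68880491-68907448, plus strand), the lipase that frees fatty acids from circulating lipoproteins, had the highest CPM of the 10. It was at 192, 237 and 202 CPM in the contralateral libraries, 51.2 and 49.5 CPM at the tenotomy site, 54.7 CPM in the library labelled uninjured replicate 1 and 144 CPM in uninjured replicate 2. The tenotomy libraries were the lowest and close together, and the contralateral libraries were the highest. The log2 fold change, tenotomy over contralateral, was -2.06 ± 0.40 (SE), or 4.18-fold lower.

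Cd36 (chr5:17781690-17888801, minus strand), the membrane fatty acid translocase, was at 68.9, 89.7 and 84.9 CPM in the contralateral limb and at 23.4 and 22.9 CPM at the tenotomy site. The library labelled uninjured replicate 1 had 23.9 CPM and uninjured replicate 2 had 77.7 CPM, inside the contralateral range. Its log2 fold change of -1.81 ± 0.46 (SE), or 3.50-fold lower, was among the smallest of the 10.

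Fabp3 (chr4:130308595-130315463, plus strand), the binding protein that carries fatty acids through the cytosol of heart and skeletal muscle, differed most. It was at 57.8, 84.4 and 85.1 CPM in the contralateral libraries and at 2.42 and 2.23 CPM at the tenotomy site, from 89 and 67 counts. The library labelled uninjured replicate 1 had 4.06 CPM and uninjured replicate 2 had 45.4 CPM, so this gene separated the 7 libraries into a high set of 4 and a low set of 3. The log2 fold change of -5.02 ± 0.98 (SE) corresponds to a 32.5-fold lower level, of uncertain size because Zcchc17 overlaps Fabp3 on the other strand with 82 and 63 tenotomy counts.

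Of the carnitine palmitoyltransferases, Cpt1b (chr15:89416405-89425863, minus strand) encodes the muscle form of the enzyme that commits fatty acids to mitochondrial entry. It was at 22.0, 27.1 and 24.7 CPM in the contralateral limb and 1.88 and 2.30 CPM at the tenotomy site, a log2 fold change of -3.56 ± 0.76 (SE) and the next largest after Fabp3. The library labelled uninjured replicate 1 had 2.44 CPM and uninjured replicate 2 had 18.5 CPM. Cpt2 (chr4:107903981-107923610, minus strand), the inner-membrane enzyme that releases the acyl group again, is expressed in many tissues. It was at 6.00, 8.20 and 7.51 CPM against 1.99 and 2.20 CPM, with 2.05 and 4.71 CPM in the library labelled uninjured replicate 1 and in uninjured replicate 2. Its log2 fold change of -1.79 ± 0.34 (SE) was the smallest of the 10.

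The matrix enzymes lay between these. Acadvl (chr11:70010183-70015411, minus strand), the very-long-chain acyl-CoA dehydrogenase that takes the opening step on long chains, was at 23.6, 28.4 and 27.8 CPM in the contralateral libraries and 4.16 and 3.80 CPM at the tenotomy site. The library labelled uninjured replicate 1 had 5.35 CPM and uninjured replicate 2 had 19.8 CPM. Acadm (chr3:153922357-153944632, minus strand), the medium-chain dehydrogenase, was at 25.3, 31.9 and 29.5 CPM against 4.24 and 4.07 CPM, with 4.31 and 19.2 CPM in the 2 libraries labelled uninjured. These 2 dehydrogenase genes were 6.68-fold and 6.95-fold lower at the tenotomy site, with log2 fold changes of -2.74 ± 0.51 and -2.80 ± 0.57 (SE). Hadha (chr5:30118304-30155162, minus strand), which carries the hydratase and long-chain dehydrogenase activities of the trifunctional protein, was at 32.4, 41.7 and 39.0 CPM against 7.91 and 7.57 CPM. It had 8.19 CPM in the library labelled uninjured replicate 1 and 25.1 CPM in uninjured replicate 2, and its log2 fold change was -2.28 ± 0.44 (SE).

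The last 2 members neither take up nor cut fatty acids. Ucp3 (chr7:100472990-100486432, plus strand) encodes an inner-membrane carrier of skeletal muscle that is induced by fatty acids. It was at 6.93, 5.92 and 7.36 CPM in the contralateral limb, 1.03 and 1.57 CPM at the tenotomy site, 1.58 CPM in the library labelled uninjured replicate 1 and 4.58 CPM in uninjured replicate 2. Its log2 fold change was -2.38 ± 0.43 (SE), from only 38 and 47 counts in the tenotomy libraries. Ppargc1a (chr5:51454250-51567726, minus strand) encodes PGC-1α, the coactivator that drives mitochondrial and oxidative genes. Relative to its level it had the tightest contralateral values in CPM, at 7.20, 7.40 and 6.99, against 1.20 and 1.23 CPM at the tenotomy site. The library labelled uninjured replicate 1 had 1.44 CPM and uninjured replicate 2 had 5.20 CPM. The log2 fold change of 44 and 37 tenotomy counts against 192 to 260 contralateral ones was -2.56 ± 0.47 (SE).

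Levels between genes can be compared per transcript length, as TPM. In the contralateral libraries Fabp3 was highest at 18.8 ± 3.59 TPM (SD, n = 3), followed by Lpl at 8.01 ± 1.57, Cd36 at 3.53 ± 0.593 and Acadm at 2.54 ± 0.471 TPM. Hadha at 2.14, Acadvl at 2.01, Cpt1b at 1.39, Cpt2 at 0.563, Ucp3 at 0.443 and Ppargc1a at 0.286 TPM completed the order. Ppargc1a, tight in CPM, spanned 0.176 to 0.383 TPM over the contralateral libraries, a wide range for its level. The ranges over libraries overlapped between Acadm and Hadha, Hadha and Acadvl, and Cpt2 and Ucp3, although within each contralateral library the first of each pair was the higher. At the tenotomy site the order changed at the top: Lpl led with 1.85 and 2.04 TPM, Cd36 followed with 0.935 and 1.02 TPM, and Fabp3 had 0.542 and 0.550 TPM.

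The groups fall into 3 series of sample title numbers, which no label calls batches. Within the series that holds the contralateral libraries and tenotomy replicate 1, all 10 members were lower in the tenotomy library, from -1.78 for Cd36 to -4.91 for Fabp3 on the log2 CPM scale. The series that holds tenotomy replicate 2 and the library labelled uninjured replicate 1 gave differences between -0.49 and 0.10 for 9 members and -0.84 for Fabp3. The third series holds uninjured replicate 2 alone, which was lower than the contralateral mean for all 10, by between 0.05 for Cd36 and 0.72 for Fabp3.

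Against the uninjured group, the tenotomy libraries had lower members by a median log2 fold change of -1.35 over the 10, from -0.70 for Cpt2 to -3.41 for Fabp3. Both tenotomy libraries lay below both uninjured ones for 9 of 10 members, the exception being Cpt2, where tenotomy replicate 2 had 2.20 CPM and the library labelled uninjured replicate 1 had 2.05 CPM. The same order held for 20.4% of all genes. None of the 16028 genes passed edgeR's quasi-likelihood test (0%), with 1741 genes at an unadjusted p under 0.05; DESeq2 called 145 genes and limma-voom called 0. Without the library labelled uninjured replicate 1, where the remaining uninjured library is assumed to vary like the other groups, 13.7% of 17018 genes were called lower and 11.4% higher. The median log2 fold change of the 10 members, again a description, was then -1.96, and without uninjured replicate 2 it was -0.18, with 14 genes called.

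In the contralateral limb the 10 members were higher than in the uninjured group by a median log2 fold change of 1.12, from 0.68 for Cd36 to 1.62 for Fabp3. All 3 contralateral libraries lay above both uninjured ones for 9 of 10 members, as for 18.9% of all genes; for Cd36, uninjured replicate 2 exceeded contralateral replicate 1. Again no gene was called by edgeR (0%), with 3084 at an unadjusted p under 0.05, 223 called by DESeq2 and 0 by limma-voom. Without the library labelled uninjured replicate 1, 0.311% of genes were called lower and 0.306% higher, and the median of the 10 members was 0.55. Without uninjured replicate 2, 5393 genes were called, and the median of the members was 2.26. Both comparisons share the uninjured libraries, and their size turns on which of these 2 is kept.

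Related genes that were not on the list were tested, though these too were listed with earlier results of these libraries known, so their counts are not independent of those results. Cpt1a encodes the liver-type form of the same carnitine palmitoyltransferase that Cpt1b encodes for muscle. It was at 3.86, 3.87 and 3.83 CPM in the contralateral libraries and at 6.53 and 6.67 CPM at the tenotomy site, so it rose while Cpt1b was lower. The log2 fold change was 0.77 ± 0.16 (SE), with an adjusted p of 0.0172 by edgeR's quasi-likelihood test. The Cpt1b to Cpt1a ratio of CPM was 5.71, 7.01 and 6.44 in the contralateral limb and 0.287 and 0.345 at the tenotomy site, so the more abundant form changed over. In the library labelled uninjured replicate 1 the ratio was 0.364, and in uninjured replicate 2 it was 3.82. Cpt1c, the brain form, also rose, by 1.32 ± 0.26 (SE) on the log2 scale (adjusted p = 0.0167), from a low level of 0.46 to 0.68 CPM.

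The binding proteins diverged in the same manner. Fabp5, the epidermal form that macrophages also express, was at 1.84, 2.19 and 2.20 CPM in the contralateral limb and 4.62 and 3.37 CPM at the tenotomy site. It rose by 0.94 ± 0.26 (SE) on the log2 scale (edgeR adjusted p = 0.0334). The Fabp3 to Fabp5 ratio of CPM was 31.5, 38.5 and 38.7 in the contralateral limb and 0.524 and 0.663 at the tenotomy site. In TPM the tenotomy levels were closer, at 0.542 and 0.550 for Fabp3 and 0.720 and 0.597 for Fabp5. In the library labelled uninjured replicate 1 Fabp3 was the higher in TPM, at 1.08 against 0.978. Fabp4, the adipocyte form, which endothelial cells and macrophages express too, had a log2 fold change of -1.03 ± 0.38 (SE) and did not pass, with an adjusted p of 0.0763 by edgeR. Fits without the library labelled uninjured replicate 1 or without uninjured replicate 2 called it lower, as did DESeq2.

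Ucp2, the broadly expressed relative of Ucp3 that is abundant in macrophages, was at 5.51, 6.26 and 5.29 CPM in the contralateral limb and 10.6 and 11.4 CPM at the tenotomy site. It rose by 0.95 ± 0.24 (SE) on the log2 scale (edgeR adjusted p = 0.0243). The macrophage markers moved with these 3 rising partners. Of 7 listed, 6 were called higher, including Adgre1 and Csf1r, and their sum was 24.8 to 30.4 CPM in the contralateral limb, 75.0 and 76.1 CPM at the tenotomy site, 69.3 CPM in the library labelled uninjured replicate 1 and 30.7 CPM in uninjured replicate 2. Their part in the rise of Cpt1a, Fabp5 and Ucp2 was not tested.

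Ppargc1b and Hadhb, the partners of Ppargc1a and Hadha, fell with them. Ppargc1b, the PGC-1β gene, was at 2.74, 3.10 and 3.96 CPM in the contralateral limb and 0.44 and 0.40 CPM at the tenotomy site. It fell by 2.95 ± 0.51 (SE) on the log2 scale, with an adjusted p of 0.0167 by edgeR. Hadhb was at 34.0, 47.3 and 41.8 CPM against 7.86 and 7.60 CPM, and fell by 2.41 ± 0.41 (SE) with the same adjusted p of 0.0167. The Hadha to Hadhb ratio stayed between 0.867 and 1.01 in all 7 libraries, over a range of levels from 7.57 to 41.7 CPM for Hadha. These are the genes on the 2 sides of the 85-base gap printed above. Genes on different chromosomes, such as Crat and Lpin1 described below, also fell by nearly equal amounts, so a steady ratio is not particular to this pair. A link between the gap and the ratio was not tested.

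**Figure D2:**
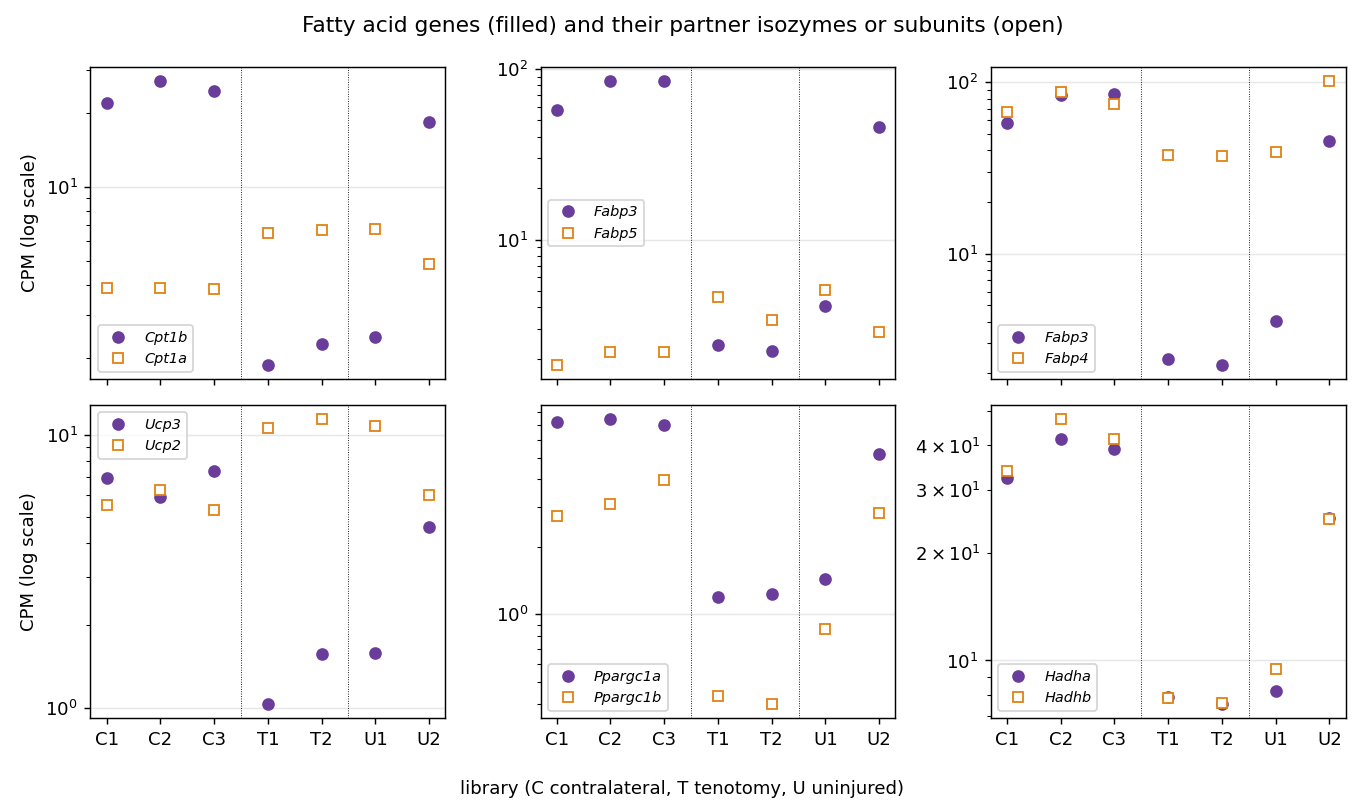
Normalised read count (CPM, log scale) of 5 of the genes (filled circles) and of their partner isozymes or subunits (open squares) in each library; dotted lines part contralateral (C), tenotomy (T) and uninjured (U) libraries. Cpt1a, Fabp5 and Ucp2 sit above their partners in T1, T2 and U1, while Hadha and Hadhb stay together in all 7 libraries.

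The 60 other pathway genes, listed by function, showed which steps went with the members. At the tenotomy site 34 of them fell, 6 rose and 20 did not pass, against background shares of 15.4% lower and 13.6% higher, and their median log2 fold change was -1.41. Mitochondrial β-oxidation was lower nearly throughout: 11 of 12 genes fell and none rose. The largest falls were those of Hadhb, of Acadl, the long-chain acyl-CoA dehydrogenase (-2.38 ± 0.43, SE), of Acaa2, the thiolase of the last step (-2.13 ± 0.47), and of Eci1, the isomerase for unsaturated chains (-2.13 ± 0.38). Eci2 was the exception, with a log2 fold change of -0.74 and an edgeR adjusted p of 0.0521.

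Uptake and activation was mixed, with 4 of 9 genes lower and 3 higher. Vldlr, a lipoprotein receptor that works with lipoprotein lipase, fell from 31.7 ± 3.88 CPM (SD, n = 3) to 5.54 ± 0.03 CPM (SD, n = 2). Gpihbp1, the endothelial protein that holds lipoprotein lipase on the capillary wall, fell by 2.00 ± 0.44 (SE) on the log2 scale. Of 7 listed endothelial markers, 5 had negative log2 fold changes, of which 1 was called lower, and 2 had positive ones. Their sum was 57.9 to 68.8 CPM in the contralateral limb and 51.3 and 62.8 CPM at the tenotomy site. These 2 tenotomy sums differed mainly by Vwf, named after its values were seen, at 3.73 and 15.7 CPM. Pecam1 was at 17.4 to 18.9 CPM in every library. Cdh5 was at 14.2 to 16.4 CPM in the contralateral limb and 11.6 and 12.6 CPM at the tenotomy site. The part of endothelial cells in the fall of Gpihbp1 was not tested. Acsl1, the main acyl-CoA synthetase of muscle and fat, fell by 2.28 ± 0.49 (SE), and Slc27a1, a fatty acid transport protein, by 1.70 ± 0.38 (SE). The 3 that rose were Fabp5, the synthetase gene Acsl5 (0.83 ± 0.19, SE) and the transporter gene Slc27a4 (0.61 ± 0.18, SE); the last 2 were named after their values were seen.

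The carnitine shuttle had 2 of 5 genes lower and 2 higher. Crat, the carnitine acetyltransferase that exports acetyl groups, fell by 2.46 ± 0.50 (SE), and Slc25a20, the carnitine-acylcarnitine carrier between CPT1 and CPT2, fell by 0.94 ± 0.15 (SE). Cpt1a and Cpt1c were the 2 that rose. Among the genes that set malonyl-CoA, the inhibitor of CPT1, 3 of 5 fell and none rose. Acacb, which makes malonyl-CoA at the mitochondrial surface, fell from 41.2 ± 4.86 CPM (SD, n = 3) to 4.29 ± 0.53 CPM (SD, n = 2). Mlycd, which removes malonyl-CoA, fell by 2.00 ± 0.40 (SE), and Prkaa2, the AMP kinase subunit abundant in muscle, by 2.83 ± 0.56 (SE).

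Of the regulators, 6 of 11 fell and none rose. Ppara, the PPAR receptor best known for inducing fatty acid oxidation, fell by 3.45 ± 0.67 (SE) from a low level of 2.16 to 3.19 CPM in the contralateral limb. Among the other listed receptors, Esrra fell by 1.73 ± 0.37 (SE). Ppard (-0.53), Pparg (-1.23) and Rxra (-0.69) did not pass, and these receptors besides Ppara were named after their values were seen. Perm1, a muscle regulator that acts with PGC-1 and ERR, fell by 3.42 ± 0.65 (SE), from 20.7 ± 3.28 CPM (SD, n = 3) to 1.93 ± 0.04 CPM (SD, n = 2). Lpin1, a phosphatase and coactivator of PPARα, fell by 2.46 ± 0.49 (SE). Of 4 listed PPAR targets, Pdk4, which restrains glucose oxidation, fell by 2.58 ± 0.29 (SE) and Acot2, a mitochondrial acyl-CoA thioesterase, by 1.45 ± 0.30 (SE), while Ucp2 rose.

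Lipid droplet genes passed in 2 of 6 cases, both lower. Plin5, which ties droplets to mitochondria in oxidative tissue, fell by 2.82 ± 0.43 (SE), and Pnpla2, the adipose triglyceride lipase gene, by 1.96 ± 0.53 (SE). Peroxisomal oxidation was lower in 4 of 8 genes, with smaller changes. Ehhadh, the peroxisomal bifunctional enzyme, fell by 1.84 ± 0.47 (SE), with only 14 and 6 counts at the tenotomy site. The transporters Abcd2 and Abcd3 fell by 1.40 ± 0.41 and 1.25 ± 0.18 (SE). The list medians were -0.88 for peroxisomal and -1.98 for mitochondrial β-oxidation genes. That difference between lists was not tested. In the 2 comparisons with the uninjured group none of the 60 passed, with 25 and 26 at an unadjusted p under 0.05, by edgeR. DESeq2 called 4 and 2 of them, and limma-voom called 0 in either comparison. Without the library labelled uninjured replicate 1, 45 of the 60 were called at the tenotomy site against the uninjured group, 42 of them lower. Against the uninjured group without that library, 1 of the 60 was called in the contralateral limb.

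**Figure D3:**
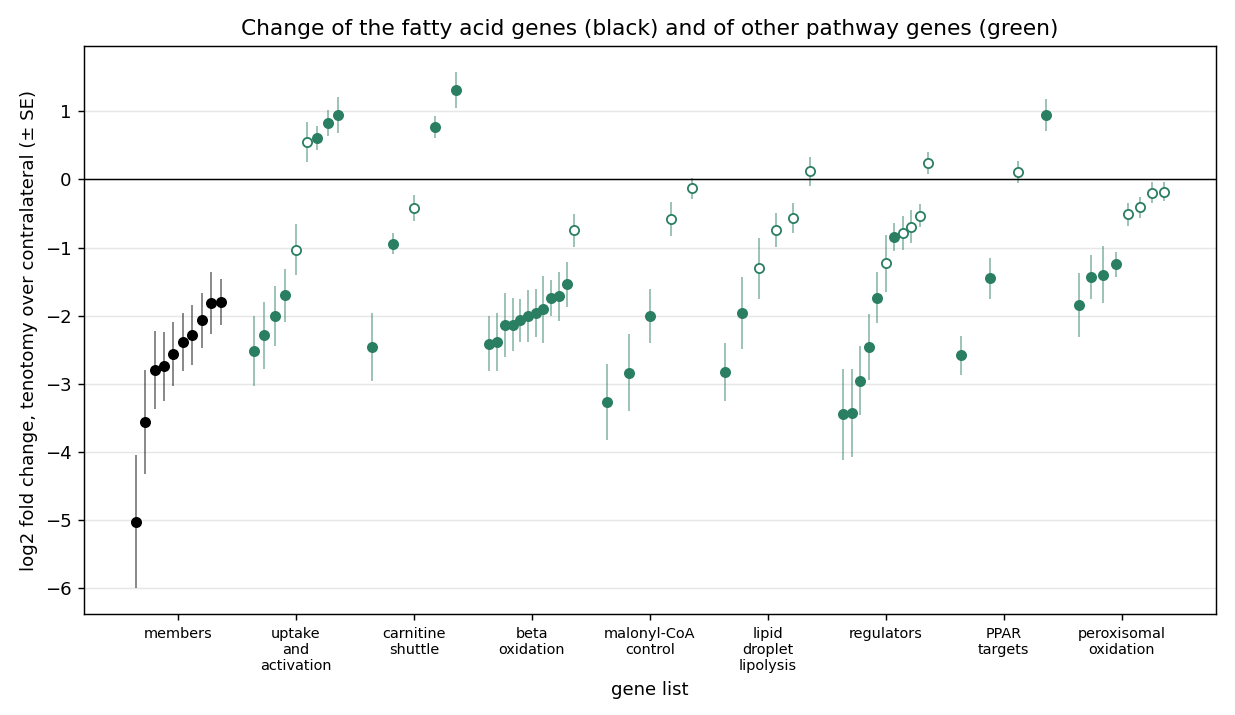
Log2 fold change, tenotomy over contralateral (± SE), of the 10 genes (black, left) and of the 60 other pathway genes by list (green). Filled points were called at an adjusted p under 0.05 by edgeR. Fabp3 at -5.02 is the lowest point, and the 6 genes that rose lie in the uptake, carnitine and PPAR target lists.

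Leaving out any 1 contralateral or tenotomy library left no gene called between these groups by edgeR. The 10 members kept their direction in each of these 5 fits, with list medians between -2.43 and -2.64, and 4538 to 6148 genes stayed at an unadjusted p under 0.05. Without the library labelled uninjured replicate 1, whose distance from uninjured replicate 2 enters the shared estimate of spread, 22% of genes were called lower and 21% higher. Of the 60 other pathway genes 46 were then called lower and 7 higher.

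Because the muscle markers differed too, each member was also set against them, a measure chosen after the values were seen. The quantity is the member's CPM per 1000 CPM of the 12 summed skeletal muscle markers. The marker sum was itself 12.6-fold lower at the tenotomy site, by group means, so a gene that fell less than that comes out higher on this scale. By this measure 8 of 10 members were higher in both tenotomy libraries than in all contralateral ones, Cpt1b overlapped, and Fabp3 alone was lower. The share of all genes with the same order was not computed, so nothing particular to the members is read from these counts. Fabp3 was at 3.02, 4.36 and 4.22 per 1000 in the contralateral limb and 1.56 and 1.43 at the tenotomy site. It was at 2.02 in the library labelled uninjured replicate 1 and 3.40 in uninjured replicate 2, the second of these inside the contralateral range. Cpt1b was at 1.15, 1.40 and 1.22 per 1000 against 1.21 and 1.47, and its 7 libraries spanned 1.15 to 1.47.

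Ttn, the giant spring protein of the sarcomere, made up 60.8% to 70.3% of the summed markers. With the 11 other markers as the base, likewise chosen after the values were seen, 8 members were again higher at the tenotomy site, Fabp3 was lower and Cpt1b overlapped. On that base, however, Fabp3 in uninjured replicate 2 was at 8.66 per 1000, below the contralateral range of 10.1 to 13.8. Single markers varied, and the log2 fold change of -2.80 for Acadm was larger in size than those of the markers Actn3 (-2.52), Pygm (-2.75) and Myoz1 (-2.78). Per 1000 CPM of all 12, Lpl was at 10.04 to 12.2 per 1000 in the contralateral libraries and 33.0 and 31.7 at the tenotomy site. Cpt2 was at 0.313 to 0.424 per 1000 against 1.28 and 1.41, and Cd36 at 3.60 to 4.64 against 15.1 and 14.7. Lpl, Cd36 and Cpt2 are also expressed outside muscle, Lpl and Cd36 strongly in fat. White adipocyte markers moved with them: 4 of 6 were called lower, and their sum was 103 to 143 CPM in the contralateral limb, 47.5 and 47.9 CPM at the tenotomy site, 44.5 CPM in the library labelled uninjured replicate 1 and 126 CPM in uninjured replicate 2. Ucp1, the defining gene of brown fat, was at 0 in all 7 libraries. The part of fat cells in the values of Lpl and Cd36 was not tested.

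**Figure D4:**
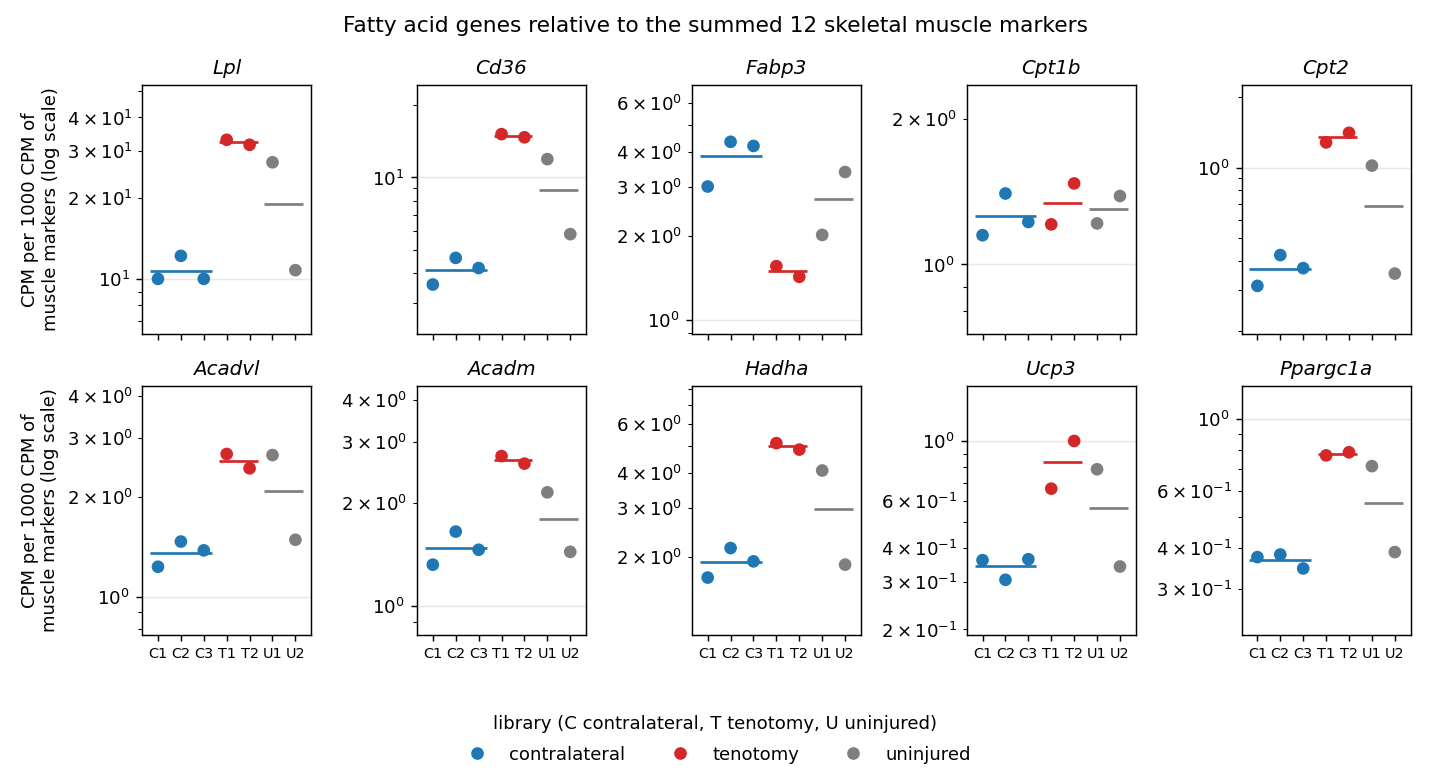
CPM of each of the 10 genes per 1000 CPM of the 12 summed skeletal muscle markers (log scale), by library, with horizontal lines at group means. Fabp3 is lower at the tenotomy site (1.56 and 1.43) than in the contralateral limb (3.02 to 4.36), Cpt1b overlaps, and the other 8 are higher.

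The slow, oxidative fibre markers were the list that came nearest to Fabp3. All 7, among them the slow myosin gene Myh7 and the slow troponin gene Tnnt1, were called lower, with a list median of -4.36. Their sum was 1050 to 1364 CPM in the contralateral limb, 58.1 and 55.5 CPM at the tenotomy site, 88.5 CPM in the library labelled uninjured replicate 1 and 556 CPM in uninjured replicate 2. The genes whose profile over the 7 libraries was most like that of Fabp3, by root mean square difference of centred log2 CPM among 2013 genes, were Ckmt2 (0.24), Myh2 (0.24), Myl2 (0.25), Mb (0.33) and Myl3 (0.34). These encode a mitochondrial creatine kinase, an oxidative fast myosin, 2 slow myosin light chains and myoglobin. Nearest to the median profile of the 10 members were Ppp1r12b (0.05), Crat (0.06), Pdk2 (0.06), Lpin1 (0.07) and Atp5a1 (0.07). With 4 high and 3 low libraries, this likeness mainly measures the size of the step between those sets.

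The transcripts of a gene did not all go together. Of 4 annotated Cd36 transcripts, all coding, Cd36-201, with the start at chr5:17835696, held 16.9%, 14.0% and 15.0% of the gene's TPM in the contralateral libraries and 27.1% and 30.8% at the tenotomy site. It held 27.4% in the library labelled uninjured replicate 1 and 18.0% in uninjured replicate 2. The AGGTCA match printed for Cd36 lies upstream of this start, but its window of 250 bases is counted from a RefSeq start at another position. The other Cd36 transcripts start at 17849729, 17849792 and 17888747. A link between the match and the share of Cd36-201 was not tested. The estimated counts of Cd36-201 were 317, 449 and 420 in the contralateral libraries and 237 and 215 at the tenotomy site.

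Lpl-202, a retained-intron transcript that encodes no protein, held 3.1%, 2.6% and 3.3% of Lpl TPM in the contralateral limb and 10.6% and 11.2% at the tenotomy site. Its estimated counts were nearly level, 94.3 to 127 in the contralateral libraries and 121 and 103 at the tenotomy site. The coding transcript Lpl-201 dropped from between 4987 and 8093 counts to 1750 and 1350. Hadha-201, annotated as a processed transcript without a coding sequence, held 48.0% to 79.6% of the gene's TPM, so the TPM of Hadha is mostly not that of the coding transcript. Fabp3 has 1 annotated transcript. Transcript shares rest on the authors' split of reads between overlapping transcripts, and those of the lower genes rest on few counts.

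**Figure D5:**
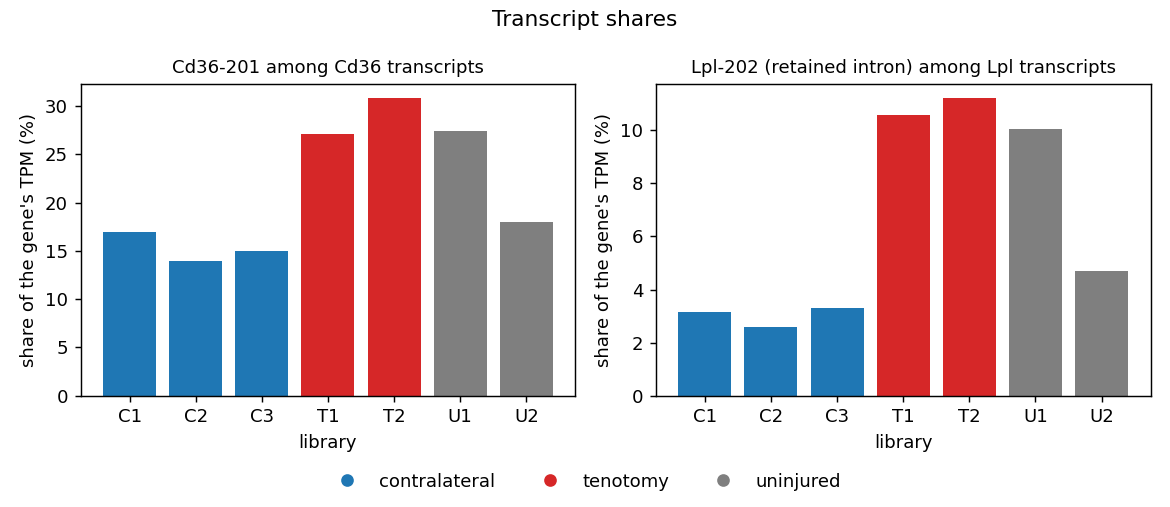
Share of the gene's TPM (%) held by Cd36-201 (left) and by the retained-intron transcript Lpl-202 (right) in each library; each bar is 1 library. T1, T2 and U1 are above all others, at 27.1% to 30.8% for Cd36-201 and 10.03% to 11.2% for Lpl-202.

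Reads of overlapping genes may enter some of these values. The pseudogene Fabp3-ps1 had at most 2 counts and Gm44502, which overlaps Cpt1b, at most 5. Whether the counting used strand is not given in the sources used here, and 3 members overlap a gene on the other strand whose counts come near theirs at the tenotomy site. Zcchc17, which overlaps Fabp3, had 82 and 63 counts there against 89 and 67 for Fabp3, and 61 to 82 counts in the contralateral libraries. Dvl2, which overlaps Acadvl, had 64 and 79 counts against 153 and 114, and Gm10603, antisense to Ucp3, had 20 and 23 counts against 38 and 47. The tenotomy levels of Fabp3, Acadvl and Ucp3, and with them the size of their differences, are uncertain for that reason.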

How the data were processed

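Trizol and column purification preceded TruSeq RNA library preparation, per the labels' protocols. kallisto and FastQC 0.11.4 are listed in the submitters' processing notes, which name the human build GRCh38 although every transcript ID is a mouse Ensembl ID; the transcriptome used is otherwise not given in the sources used here. The deposited tables hold estimated counts, not normalized, and TPM, per the file headers, for 103639 transcripts in each of the 7 libraries. TPM deposited by the authors are scaled by effective length to a fixed total.

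Of the transcripts, 101510 matched GENCODE M21 (GRCm38) without version, 57625 with it; 2129 stayed single features. Estimated counts were summed per gene and rounded. filterByExpr (minimum count 10, by group) kept 16028 features, called genes. Counts were scaled by TMM and tested with edgeR 4.0.16 (quasi-likelihood, 3 group means, 4 residual degrees of freedom) in R 4.3.3, with Benjamini-Hochberg adjustment and a threshold of 0.05. CPM are scaled by TMM, and log2 CPM used a prior count of 2. The SE is the log2 fold change divided by the square root of F. Simulated counts of 16028 genes were drawn with the median dispersion of 0.0272 for every gene. The wide spread between the uninjured libraries was therefore not reproduced. For tenotomy against contralateral in these counts, edgeR recovered 195 of 200 changed genes and called 15 others. Where none was changed, it called 0. In the measured libraries far more genes were called between these groups, 2465 lower and 2178 higher. The error rate of edgeR on the measured libraries was not tested.

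The members and lists were chosen with earlier results of these data known. All members, the 6 partner genes, the defining markers, the 4 largest changes called in each pathway list and the 5 nearest profiles were named by rule. A gene that the rule names is not reported here. Replicates are numbered in accession order. Alternatives were other scalings, no filter, DESeq2 1.42.0, limma-voom (limma 3.58.1), fits of only the groups compared, the title series as a covariate, length-scaled TPM and leaving out each library. Promoter windows and the letters of the gap are RefSeq's, build GRCm38.p6, and the ends of the gap are those of GENCODE M21.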

Additional observations from a re-analysis of the deposited data

How the results depend on the processing

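No paired analysis was possible because the labels give no replicate numbers and do not say which limbs, if any, came from the same mouse. Between tenotomy and contralateral, the 10 members kept their direction under every alternative tried; called genes numbered 7385 (3533 higher, 3852 lower) with only these groups in the fit, and the other scalings, tools and filters stayed within 1.5 times of the main count. Scaling by library totals or upper quartile moved the median of all genes by 0.15 and 0.11 (log2); no member or partner changed direction there in this comparison. Leaving out a library gave 0 to 7336 genes, 0 to 53 other pathway genes and 0 to 10 members called. The zeros came from leaving out a contralateral or tenotomy library, the high values from leaving out an uninjured one.

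Tenotomy against uninjured gave 15 genes with no filter and 145 with DESeq2 (4 other pathway genes and 3 members). With the title series as covariate, uninjured replicate 2 drops out, because it is the only library of its series. What remains is tenotomy replicate 2 against the library labelled uninjured replicate 1, so only effect sizes are given for that fit. Leaving out a library gave 0 to 4275 genes, 0 to 45 other pathway genes and 0 to 10 members. Cpt2 turned to 0.10 with the series covariate, and its log2 fold change ran from -1.17 to 0.028 over the fits that leave out a library. Fabp5 turned to -0.59 with the series covariate and ran from -0.33 to 0.48, and Cpt1a turned to -0.011 and ran from -0.025 to 0.45.

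Contralateral against uninjured gave 337 genes and 1 other pathway gene with no filter, 223 and 2 with DESeq2, and 2466 and 35 with the series covariate, which also called 10 members. Leaving out a library gave 0 to 5393 genes, 0 to 46 other pathway genes and 0 to 10 members, and Fabp4 ran from -0.42 to 0.96, negative without uninjured replicate 1. The cause of these shifts was not tested. Contralateral and uninjured libraries share no title series, and with the series covariate uninjured replicate 2 again drops out. That fit therefore compares these groups only by way of the tenotomy libraries and the library labelled uninjured replicate 1. Nothing is read from the genes and members that it called between contralateral and uninjured. At 37 to 47 counts, Ucp3 and Ppargc1a at the tenotomy site are the members that depth limits most. Some other pathway genes had fewer tenotomy counts still. Ehhadh had 14 and 6, Plin5 12 and 7, Ppara 12 and 5, Ppargc1b 16 and 12, and Gpihbp1 19 and 23.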
